A study of Mus musculus with 12 samples.

Results

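The 8 genes followed here are those of the lysophosphatidylserine receptor Gpr34, the P2Y receptors P2ry6, P2ry12, P2ry13 and P2ry14, the P2X channels P2rx4 and P2rx7, and the ectoenzyme Entpd1 (CD39). They were chosen by symbol, and each symbol matched 1 Ensembl identifier among the 52636 in the count table. All 8 passed the filter on low counts, which kept 14687 identifiers. The rule that picks them names no measured value, although earlier results of these data were known when it was set.

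The study asked what added neurofilament light chain (NfL), an axonal structural protein that injured neurons release, does to microglia. RNA of cultured microglia was sequenced 24 h after 5 µg of full length NfL (FL-NfL), after 5 µg of the coiled-coil form of NfL (CC-NfL) or after vehicle (Vehicle), with 4 libraries in each of the 3 groups. All groups shared the genotype WT and the strain C57BL/6. The cells came from mouse pups of postnatal day 1 to 2, spent 10 to 13 days in mixed glial flasks, were shaken off, and were plated at 50000 cells per well in medium with 10% serum and 2.5 ng of the growth factor CSF1. These are thus cells of newborn brain grown in serum, which limits them as a model of microglia in adult tissue. The libraries carry batch labels 1 to 4 that equal the replicate numbers, with 1 library of each group in each batch. Total counts were 20162427 to 31048044 per library. Levels are given as CPM, which are read counts scaled to the library total with TMM factors, and changes as log2 fold changes with their standard errors (SE) from edgeR's quasi-likelihood test, adjusted over all tested genes.

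Extracellular ATP and its breakdown products tell microglia of cell damage. P2X receptors are cation channels that ATP opens, whereas P2Y receptors couple to G proteins and answer ADP, UDP or UDP-sugars. Entpd1 sits on the cell surface and removes phosphates from ATP and ADP, which both ends their signals and feeds the formation of adenosine. Gpr34 is a relative of P2ry12 and P2ry13 that binds lysophosphatidylserine, a lipid of damaged or dying cells. P2ry12, P2ry13 and Gpr34 are among the genes used to mark microglia in the undisturbed brain.

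Gpr34 (ENSMUSG00000040229) lies at X:13632089-13640858 on the plus strand of GRCm38, inside the gene Cask. P2ry14 (ENSMUSG00000036381, 3:59113855-59153618), P2ry13 (ENSMUSG00000036362, 3:59207892-59210882) and P2ry12 (ENSMUSG00000036353, 3:59216272-59262871) stand in a row on the minus strand of chromosome 3, all inside Med12l. P2rx7 (ENSMUSG00000029468, 5:122643911-122691432) and P2rx4 (ENSMUSG00000029470, 5:122707544-122729738) are 16.11 kb apart on the plus strand of chromosome 5. P2ry6 (ENSMUSG00000048779) lies at 7:100937630-100974649 on the minus strand, and Entpd1 (ENSMUSG00000048120) at 19:40612366-40741602 on the plus strand.

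RefSeq promoter windows for GRCm38.p6, from 250 bases before to 50 bases after a start site, covered 6 of the 8 genes with 11 windows, and none was given for Gpr34 and P2ry6. The first window is shown for Entpd1, which fell with FL-NfL, for P2rx4, which rose, and for P2ry12, whose level followed the batch, so that their base composition can be compared. Capitals mark CG pairs.
Entpd1, chr19:40612116-40612415, plus strand: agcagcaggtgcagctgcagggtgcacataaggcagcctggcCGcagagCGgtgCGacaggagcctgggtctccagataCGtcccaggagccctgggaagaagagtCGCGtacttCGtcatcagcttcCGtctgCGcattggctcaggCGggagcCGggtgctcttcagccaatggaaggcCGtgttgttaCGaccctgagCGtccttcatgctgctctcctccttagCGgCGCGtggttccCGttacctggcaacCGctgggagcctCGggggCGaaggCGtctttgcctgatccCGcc
P2rx4, chr5:122707294-122707593, plus strand: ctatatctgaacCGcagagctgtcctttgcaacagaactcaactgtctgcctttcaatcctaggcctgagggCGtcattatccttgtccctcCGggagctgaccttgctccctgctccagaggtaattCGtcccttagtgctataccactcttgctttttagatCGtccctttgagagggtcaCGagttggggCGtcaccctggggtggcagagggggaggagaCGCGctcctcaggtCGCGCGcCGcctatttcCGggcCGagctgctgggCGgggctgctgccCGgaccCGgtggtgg
P2ry12, chr3:59262936-59263235, minus strand: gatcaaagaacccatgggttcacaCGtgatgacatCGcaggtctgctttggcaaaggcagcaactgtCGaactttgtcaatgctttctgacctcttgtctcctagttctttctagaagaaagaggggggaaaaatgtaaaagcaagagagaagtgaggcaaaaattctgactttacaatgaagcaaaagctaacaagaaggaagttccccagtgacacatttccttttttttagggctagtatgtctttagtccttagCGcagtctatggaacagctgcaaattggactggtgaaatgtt

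The windows shown for Entpd1 and P2rx4 held 23 and 18 CG pairs at 64.0% and 60.3% G or C. That of P2ry12 held 4 CG pairs at 42.3%, and the second window of Entpd1 held 10 at 48.7%. Which start site the cells used was not tested. The median over 32851 RefSeq windows was 7 pairs, with quartiles of 3 and 20. Both strands were searched for 6 motifs, written here with their share of all windows: PU.1 (GAGGAAGT, 3.2%), AP-1 (TGANTCA, 7.81%), NF-kB (GGGA, 4 free bases, CC, 20.7%), ISRE (GAAA, 2 free bases, GAAA, 3.44%), CRE (TGACGTCA, 1.79%) and MEF2 (CTA, 4 free bases, TAG, 3.69%). No match to these letters was found in either window of Entpd1 or in the windows of P2rx4 and P2ry13. The P2ry12 window held 1 NF-kB match, GGAAGTTCCC, starting 51 bases before the start site. P2ry14 had AP-1 matches in 2 of its 4 windows and an NF-kB match in another, and P2rx7 had an AP-1 match in its first window and a PU.1 match in its second. No matches overlapped, and a match is a description of the letters alone.

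The label microglia was checked against 10 microglial and macrophage markers, whose summed level was 7869 to 8419 CPM with FL-NfL, 8518 to 9399 with CC-NfL and 8509 to 9983 with Vehicle. Csf1r and Cx3cr1 were abundant, but Tmem119 (19.2 CPM with FL-NfL, 11.6 with Vehicle) and Sall1 (14.3 and 19.6) were low, and Siglech had 0 to 3 counts per library. Of 9 tested markers, 2 (Aif1 and Ptprc) rose with FL-NfL and 3 fell, Csf1r and Cx3cr1 among them (adjusted p under 0.05). Of all tested genes, 14% rose and 10.9% fell. In a fit that compares libraries within a batch, 5 of the 9 markers rose and 4 fell, against 21.4% and 22.4% of all tested genes. Summed neuronal markers were at most 10.2, 14.5 and 19.8 CPM in FL-NfL, CC-NfL and Vehicle libraries, astrocyte markers at most 27.3, 37.5 and 41.0, and oligodendrocyte lineage markers 85.2 to 107, 107 to 185 and 114 to 167. Markers of border-associated macrophages, nearly all of it Mrc1, summed to 315 to 628, 477 to 1088 and 680 to 1274 CPM. Summed markers of platelets, which also express P2ry12, were at most 0.917, 1.68 and 2.00 CPM, and those of endothelial cells at most 32.2, 22.4 and 29.0. Fibroblast, T cell and neutrophil markers were at most 3.66 CPM in any library. With FL-NfL, 1 of 4 tested neuronal and 1 of 3 tested border-associated macrophage markers fell, and 1 of 3 tested endothelial markers rose. In the fit within batches 4 neuronal, 2 border-associated macrophage, 3 of 5 astrocyte and 3 of 4 oligodendrocyte lineage markers fell, and 1 endothelial marker rose. The part of these shifts in the results below was not tested. The libraries of replicate 3 stood apart for 5 of the 8 genes, P2ry6, P2ry12, P2ry13, P2ry14 and P2rx7, which were highest there in each group.

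**Figure D1:**
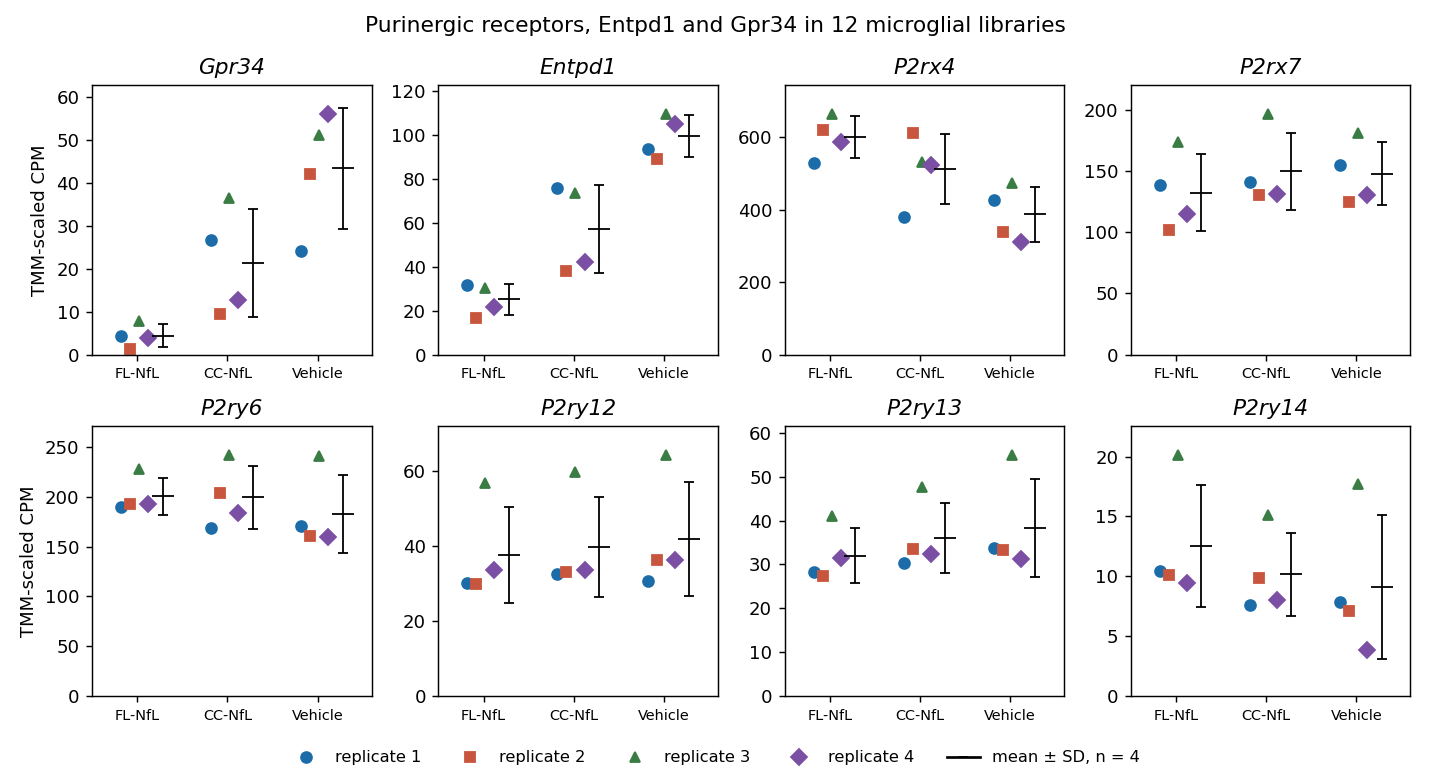
TMM-scaled CPM (y axis, starting at 0) of each gene in the FL-NfL, CC-NfL and Vehicle libraries, with a symbol and colour for each replicate and, beside them, the mean and SD of 4 libraries. Gpr34 and Entpd1 were lower in every FL-NfL library than in any Vehicle library and P2rx4 was higher in every FL-NfL library, whereas the groups of the other 5 genes overlapped.

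With FL-NfL, Gpr34 and Entpd1 fell and P2rx4 rose. The other 5 receptors did not pass the threshold against Vehicle in the model without a term for batch. Of the 8 genes, 1 was higher and 2 were lower at an adjusted p under 0.05, against 14% and 10.9% of all tested genes (24.9% in either direction). The median log2 change of the 8 was −0.16, beside −0.02 over all tested genes. In these bulk cultures fewer cells of a type and less RNA per cell cannot be told apart.

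Gpr34, the lysophosphatidylserine receptor, had the largest change of the 8 genes. In FL-NfL replicates 1 to 4 it stood at 4.38, 1.37, 7.79 and 3.94 CPM, in CC-NfL at 26.5, 9.52, 36.5 and 12.6, and in Vehicle at 24.2, 41.9, 51.1 and 56.0. The FL-NfL values came from 129, 34, 186 and 83 reads, so counting error was small beside the spread between libraries. Every FL-NfL library was below every library of the other groups, while the CC-NfL and Vehicle libraries overlapped. Gpr34 averaged 4.37 ± 2.64 CPM with FL-NfL and 43.3 ± 14.01 with Vehicle (SD, n = 4 each). The log2 fold change was −3.31 ± 0.53 (95% interval −4.45 to −2.16), a 9.91-fold lower level, with an adjusted p of 0.00165 in edgeR. It was lower in 4 of 4 batches, by log2 ratios of −2.46, −4.94, −2.71 and −3.83. Without the replicate 3 libraries the change was −3.65 (adjusted p = 0.00374 in edgeR).

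Entpd1, which hydrolyses ATP and ADP, fell less far but with less spread. It stood at 31.9, 16.9, 30.2 and 21.7 CPM in FL-NfL replicates 1 to 4, at 76.0, 38.0, 73.5 and 42.2 in CC-NfL and at 93.8, 89.3, 109.8 and 105.2 in Vehicle. The 3 groups did not overlap at all, with CC-NfL between the others. Means were 25.2 ± 7.10 CPM with FL-NfL and 99.5 ± 9.59 with Vehicle (SD, n = 4 each). The log2 fold change was −1.98 ± 0.25 (95% interval −2.53 to −1.43), a 3.95-fold lower level, with an adjusted p of 0.000626 in edgeR. All 4 batches went the same way, with log2 ratios of −1.56, −2.40, −1.86 and −2.28. The change was −2.03 without replicate 3 (adjusted p = 0.00369 in edgeR).

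P2rx4, an ATP-gated cation channel found on the surface and in lysosomes, was the gene that rose. FL-NfL replicates 1 to 4 had 528.8, 620.3, 664.4 and 586.0 CPM, CC-NfL 381.1, 612.1, 530.6 and 522.4, and Vehicle 425.4, 338.3, 473.2 and 309.9. The FL-NfL and Vehicle libraries did not overlap, while the CC-NfL libraries reached into both ranges. The log2 fold change between FL-NfL and Vehicle was 0.63 ± 0.16 (95% interval 0.29 to 0.98), a 1.55-fold higher level, with an adjusted p of 0.0139 in edgeR. It was higher in 4 of 4 batches, with log2 ratios of 0.31, 0.87, 0.49 and 0.92. Without replicate 3 it was 0.69 (adjusted p = 0.0212 in edgeR). Groups that do not overlap were thus found for 2 genes on the lower side, against 11.4% of all tested genes, and for 1 on the higher side, against 14.5%.

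P2rx7, the ATP-gated channel that opens at high ATP and is coupled to release of interleukin-1, had 138.5, 102.0, 173.4 and 114.6 CPM in FL-NfL replicates 1 to 4. CC-NfL libraries had 141.0, 130.1, 196.5 and 130.8 CPM and Vehicle libraries 154.9, 124.9, 180.5 and 130.3. The groups overlapped, with replicate 3 on top in each. The log2 difference between FL-NfL and Vehicle was −0.16 (95% interval −0.56 to 0.24, adjusted p = 0.544 in edgeR). It was lower in 4 of 4 batches, and with the replicate block it was called at −0.17 (adjusted p = 0.046 in edgeR).

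P2ry6, a receptor for UDP that is known to drive phagocytosis by microglia, had 189.2, 192.2, 227.7 and 192.3 CPM with FL-NfL. It had 168.7, 203.6, 241.8 and 183.8 CPM with CC-NfL and 170.7, 160.5, 241.2 and 159.8 with Vehicle. The groups overlapped, and the log2 difference between FL-NfL and Vehicle was 0.13 (95% interval −0.19 to 0.45, adjusted p = 0.529 in edgeR). Without replicate 3 it was 0.23 with an adjusted p of 0.0696 in edgeR.

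P2ry12, the ADP receptor through which microglial processes find a site of injury, had 30.0, 29.9, 56.7 and 33.7 CPM in FL-NfL replicates 1 to 4. It had 32.6, 33.1, 59.7 and 33.7 CPM in CC-NfL libraries and 30.6, 36.2, 64.2 and 36.2 in Vehicle libraries. The groups overlapped almost completely, and within each of them replicate 3 stood far above the other three. Against Vehicle the log2 difference with FL-NfL was −0.16 ± 0.29, with a 95% interval of −0.78 to 0.47 and an adjusted p of 0.711 in edgeR. The sign turned without Vehicle replicate 3 (0.13, adjusted p = 0.735 in edgeR), a fit that kept the high replicate 3 of the other groups. Without replicate 3 of every group the difference was −0.14 (adjusted p = 0.275 in edgeR). P2ry12 was lower with FL-NfL than with Vehicle in 4 of 4 batches. The lower end of its interval, −0.78, stops short of the interval of Gpr34, whose upper end is −2.16.

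P2ry13, which also binds ADP, had 28.3, 27.4, 41.0 and 31.5 CPM with FL-NfL, 30.4, 33.5, 47.8 and 32.5 with CC-NfL, and 33.8, 33.2, 55.0 and 31.3 with Vehicle. Its groups overlapped too, at a log2 difference between FL-NfL and Vehicle of −0.26 (95% interval −0.70 to 0.18, adjusted p = 0.369 in edgeR). P2ry14, the receptor for UDP-glucose, was the gene of the 8 with the lowest level per length. It had 10.4, 10.1, 20.1 and 9.44 CPM with FL-NfL, 7.56, 9.88, 15.1 and 8.02 with CC-NfL, and 7.81, 7.08, 17.8 and 3.85 with Vehicle. FL-NfL was above Vehicle in 4 of 4 batches, although the groups overlapped, and the log2 difference was 0.45 (95% interval −0.44 to 1.35, adjusted p = 0.438 in edgeR). Leaving out Vehicle replicate 3 moved that difference to 1.00 (adjusted p = 0.0518 in edgeR). Without replicate 3 of every group it was 0.68 (adjusted p = 0.0561 in edgeR).

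With the replicate number as a block, which compares libraries within a batch, 2 of the 8 genes were higher and 4 were lower with FL-NfL, against 21.4% and 22.4% of all tested genes under the block (43.8% in either direction). The additional calls were P2ry13 at a log2 change of −0.24 (adjusted p = 0.0208 in edgeR), P2ry14 at 0.55 (adjusted p = 0.0265) and P2rx7 at −0.17 (adjusted p = 0.046). P2ry12 was lower in 4 of 4 batches, at log2 ratios of −0.28 to −0.03, and under the block had a difference of −0.15 with an adjusted p of 0.066. P2ry6 had 0.15 with an adjusted p of 0.134. The changes of P2ry13 and P2rx7 within a batch were thus small beside those of Gpr34 and Entpd1, at −3.47 and −2.04 under the block. That of P2ry14, at 0.55 ± 0.18, was near the 0.63 ± 0.14 of P2rx4 under the block.

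**Figure D2:**
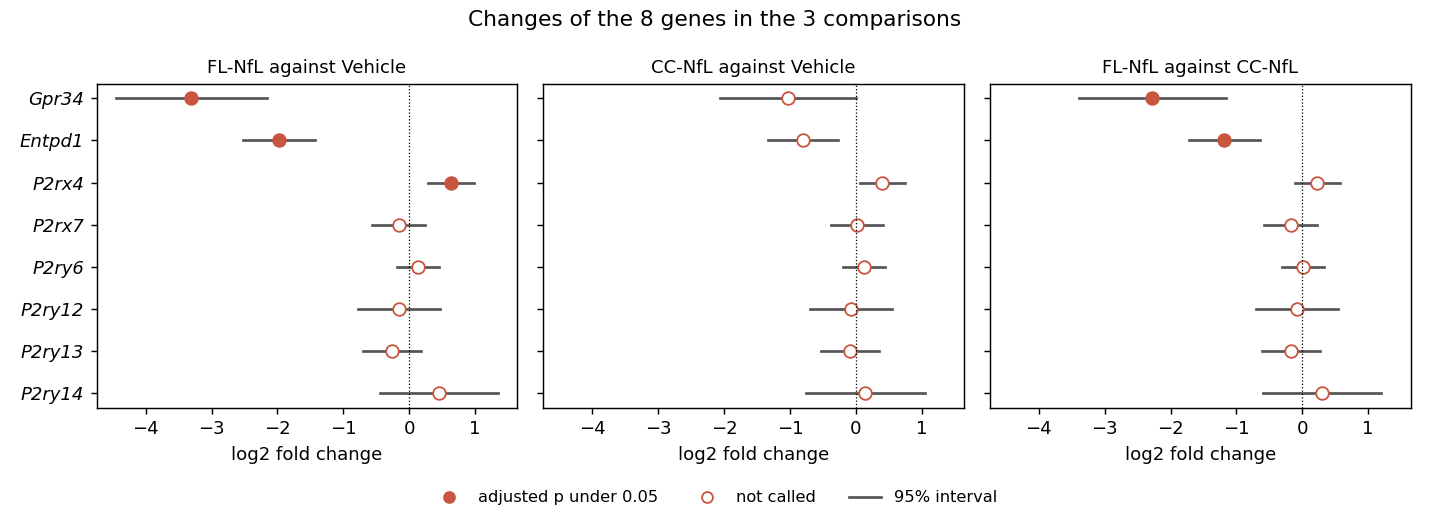
Log2 fold change (x axis) of the 8 genes in each of the 3 comparisons, with bars for the 95% interval and filled points for an adjusted p under 0.05. With FL-NfL against Vehicle, Gpr34 at −3.31 and Entpd1 at −1.98 lie to the left and P2rx4 at 0.63 to the right, with CC-NfL no point is filled, and with FL-NfL against CC-NfL Gpr34 and Entpd1 are filled.

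CC-NfL gave no call for any of the 8 genes, and edgeR called 0% of all tested genes in that comparison. At an unadjusted p under 0.05 it had 1082 of 14687 genes, DESeq2 called 33 and edgeR with the replicate block 2 (0.0136%, with 0.00681% in each direction), of which 0 were among the 8. The median log2 difference of the 8 genes was −0.03, beside 0.0039 over all tested genes. The comparisons of FL-NfL and CC-NfL share the Vehicle libraries, so their values are given side by side only. Gpr34 had −3.31 with FL-NfL and −1.03 with CC-NfL, Entpd1 −1.98 and −0.80, and P2rx4 0.63 and 0.40. For CC-NfL the 95% intervals were −2.06 to 0.0044 for Gpr34, −1.32 to −0.27 for Entpd1 and 0.06 to 0.75 for P2rx4, at adjusted p-values of 0.676, 0.646 and 0.668 in edgeR. The other 5 genes lay between −0.09 (P2ry13) and 0.15 (P2ry14).

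Entpd1 was lower in all 4 CC-NfL libraries than in any Vehicle library, at 57.4 ± 20.1 CPM with CC-NfL and 99.5 ± 9.59 with Vehicle (SD, n = 4 each). This lack of overlap on the lower side was shared by 1.31% of all tested genes, and 1.42% had it on the higher side, where none of the 8 did. Gpr34 averaged 21.3 ± 12.6 CPM with CC-NfL, with replicate 1 at the level of its Vehicle library. The size of the CC-NfL difference varied with the batch. In batches 1 to 4 the log2 ratio of CC-NfL to Vehicle was 0.13, −2.14, −0.48 and −2.15 for Gpr34 and −0.30, −1.23, −0.58 and −1.32 for Entpd1. For P2rx4 it was −0.16, 0.86, 0.17 and 0.75. Batches 2 and 4 gave the large differences in all 3 genes and batches 1 and 3 the small ones. The split also appeared in some genes that were not called with FL-NfL. Ratios were −0.05, 0.48, −0.23 and 1.06 for P2ry14 and −0.02, 0.34, 0.0039 and 0.20 for P2ry6. P2ry13 did not show it in this form, at −0.15, 0.01, −0.20 and 0.05, with the larger differences in batches 1 and 3. The split was also not seen in P2ry12 (0.09, −0.13, −0.10 and −0.11) or P2rx7 (−0.14, 0.06, 0.12 and 0.0050). FL-NfL ratios were also larger in batches 2 and 4 than in batches 1 and 3 for Gpr34, Entpd1 and P2rx4. The ratios of a batch share a Vehicle library, and what else differed between the batches was not tested.

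**Figure D3:**
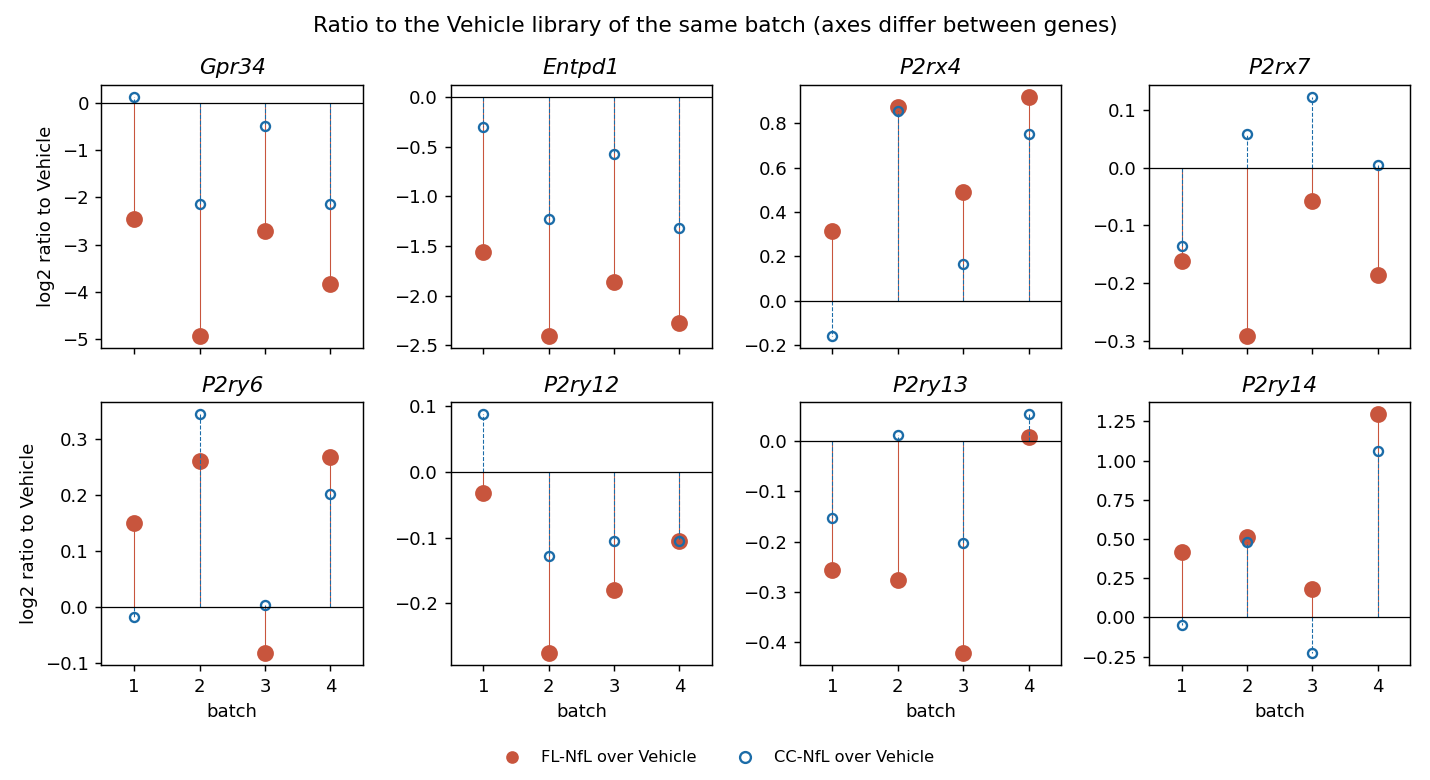
Log2 ratio to the Vehicle library of the same batch (y axis, scaled separately for each gene) in batches 1 to 4 (x axis), for FL-NfL and CC-NfL. For Gpr34, Entpd1 and P2rx4 the CC-NfL points of batches 2 and 4 lie far from 0 and those of batches 1 and 3 near it, and the FL-NfL points of Gpr34 and Entpd1 lie below the CC-NfL points in all 4 batches.

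Between the NfL forms, FL-NfL left less Gpr34 and Entpd1 than CC-NfL. Of the 8 genes, 0 were higher and 2 lower, against 1.38% and 1.34% of all tested genes (2.72% in either direction). The log2 difference was −2.28 ± 0.51 for Gpr34 (95% interval −3.40 to −1.16, adjusted p = 0.0417 in edgeR), a 4.86-fold lower level. It was −1.19 ± 0.25 for Entpd1 (95% interval −1.73 to −0.65, adjusted p = 0.034 in edgeR), a 2.28-fold lower level. Neither gene overlapped between the forms, against 5.02% of all tested genes without overlap on the lower side and 7.46% on the higher side. Both were lower in 4 of 4 batches. The batch ratios were −2.60, −2.80, −2.23 and −1.68 for Gpr34 and −1.25, −1.17, −1.28 and −0.96 for Entpd1, and thus more even than the ratios to Vehicle. P2rx4 was 0.23 higher on the log2 scale with FL-NfL (95% interval −0.11 to 0.57, adjusted p = 0.434 in edgeR). The other 5 genes differed by −0.18 (P2rx7) to 0.31 (P2ry14), with adjusted p-values of 0.612 to 0.984 in edgeR.

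Both calls between the forms were close to the threshold. The call of Gpr34 was lost without FL-NfL replicate 1, 2 or 4, CC-NfL replicate 1, 3 or 4, or Vehicle replicate 2 or 4, at log2 differences of −1.89 to −2.46 and adjusted p-values of 0.0536 to 0.125 in edgeR. That of Entpd1 was lost without FL-NfL replicate 2 or 4 or CC-NfL replicate 1 or 3, at −1.01 to −1.11 and adjusted p-values of 0.0871 to 0.112 in edgeR. Without replicate 3 of every group the values were −2.32 (adjusted p = 0.0796) and −1.14 (adjusted p = 0.09), and with only the 2 groups in the fit −2.28 (adjusted p = 0.0794) and −1.19 (adjusted p = 0.0752). Under the replicate block both genes were lower, with adjusted p-values of 0.00395 for Gpr34 and 0.00101 for Entpd1 in edgeR, and 0 of the 8 were higher, against 10.1% and 8.99% of all tested genes (19.1% in either direction).

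The 8 genes fell apart by what their levels followed. On log2 CPM, treatment took 85.2% of the variance of Entpd1, 79.4% of that of Gpr34 and 61.0% of that of P2rx4, and batch 10.5%, 11.6% and 13.5%. For P2ry12 treatment took 2.41% and batch 96.2%. Batch also took 85.0% of the variance of P2rx7, 82.4% of P2ry13, 74.7% of P2ry6 and 71.2% of P2ry14. The medians over all tested genes were 30.1% for treatment and 34.2% for batch. These shares describe 12 libraries and carry no test.

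Levels can be compared between genes per kilobase of exon. With FL-NfL the order was P2rx4 (85.4 CPM per kb), P2ry6 (69.4), P2rx7 (22.1), P2ry12 (14.8), P2ry13 (12.7), Entpd1 (4.51), Gpr34 (2.09) and P2ry14 (1.13). CC-NfL gave 72.8 for P2rx4, 69.1 for P2ry6, 25.1 for P2rx7, 15.6 for P2ry12, 14.3 for P2ry13, 10.3 for Entpd1, 10.2 for Gpr34 and 0.918 for P2ry14. With Vehicle the order was P2ry6 (63.4), P2rx4 (55.0), P2rx7 (24.7), Gpr34 (20.7), Entpd1 (17.8), P2ry12 (16.4), P2ry13 (15.2) and P2ry14 (0.825). Gpr34 and Entpd1 thus stood above P2ry12 and P2ry13 in Vehicle means, within overlapping ranges, and below every library of them in FL-NfL cultures. In Vehicle, the neighbours from P2ry6 to P2rx4 and from P2rx7 down to P2ry13 overlapped in range, whereas P2ry14 lay apart at 0.348 to 1.61 CPM per kb. With the longest transcript as the length, both P2rx4 (99.3) and P2ry6 (94.1) and, further down, Entpd1 (23.6) and Gpr34 (20.7) changed places in Vehicle, while the orders with FL-NfL and CC-NfL were as given.

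Among 9244 genes that averaged 5 CPM or more, those whose log2 CPM ran most like Gpr34 over the 12 libraries were Arap3, Zcchc24, Zfp395, Eif4ebp2 and Far1, each with a Pearson r of 0.98. Their log2 changes with FL-NfL were −0.73, −0.42, −0.99, −0.62 and −0.53, all smaller than that of Gpr34. The 5 most like P2ry12 were Ncapg2 (0.97), Csrp1 (0.96), Cpq (0.96), Rgs18 (0.96) and Rnf169 (0.95), and none of them was called with FL-NfL. The points share batch and treatment, so these r values describe likeness and carry no test.

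The receptor genes inside other genes could be compared with their hosts. Cask, the scaffold kinase gene around Gpr34 on the opposite strand, shares 0 exon bases with it. Cask averaged 58.9 ± 6.04 CPM with FL-NfL and 61.5 ± 5.96 with Vehicle (SD, n = 4 each), at a log2 difference of −0.06 (adjusted p = 0.608 in edgeR). Its sign turned without FL-NfL replicate 1 (0.0046) or Vehicle replicate 2 (0.011). Gpr82, an orphan receptor gene 20.51 kb from Gpr34 and also inside Cask, had 0.924 CPM with FL-NfL and 1.90 with Vehicle (log2 difference −1.04, adjusted p = 0.219 in edgeR). Under the replicate block it was called, at −1.09 (adjusted p = 0.00277 in edgeR), and also without replicate 3 of every group, at −1.15 (adjusted p = 0.0282 in edgeR).

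P2ry13 lies 5.39 kb from P2ry12 and 54.27 kb from P2ry14, all opposite in strand to Med12l, a mediator subunit gene of 312.9 kb. P2ry12 shares 9 of its 2546 exon bases with Med12l (0.353%) and the other two share none. Med12l was at 1.60 CPM with FL-NfL and 2.01 with Vehicle (log2 difference −0.33, adjusted p = 0.472 in edgeR). Gpr171, another receptor gene of this row, was near absent, with 0 to 4 counts per library. Igsf10, beside them, had −0.76 (adjusted p = 0.334 in edgeR, 0.0401 with the replicate block). P2ry2, a receptor for ATP and UTP next to P2ry6, had 0.50 (adjusted p = 0.193), and 0.81 without Vehicle replicate 1 (adjusted p = 0.0358), both in edgeR. Camkk2, next to P2rx4, had −0.12 (adjusted p = 0.419 in edgeR). With CC-NfL these 6 tested host and neighbour genes lay between −0.19 and 0.09.

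**Figure D4:**
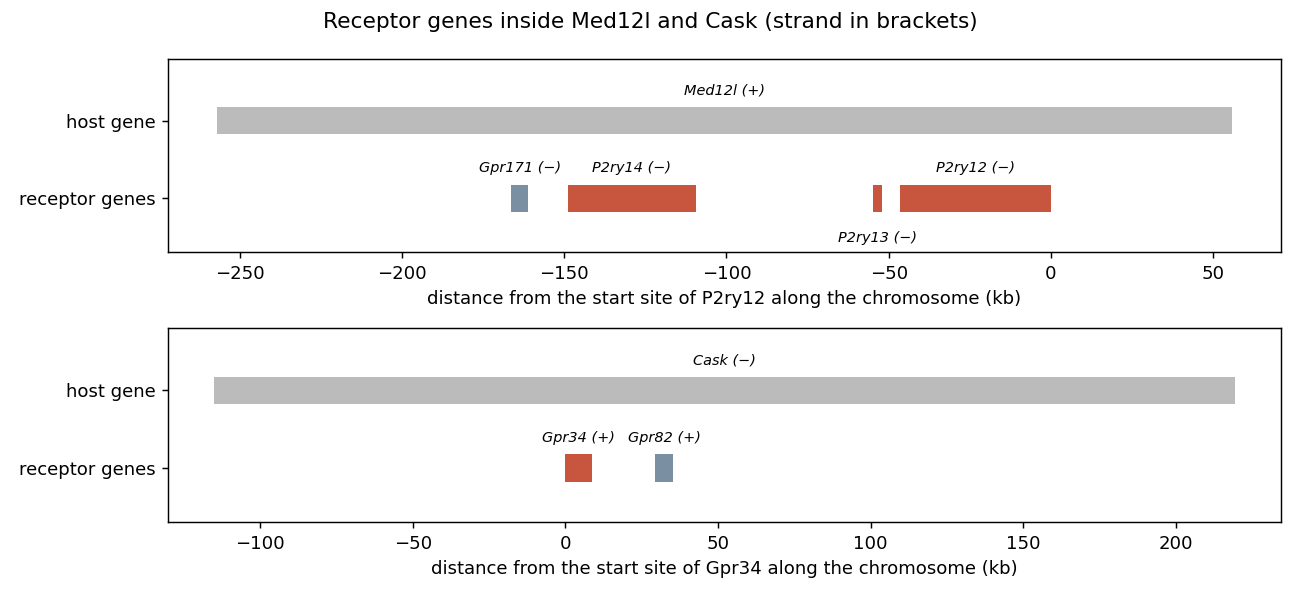
Position of the receptor genes and their host genes as distance in kb from the start site of P2ry12 (upper panel) and Gpr34 (lower panel), with the strand in brackets. P2ry13 lies 5.39 kb from P2ry12, and all receptor genes shown lie within the span of Med12l or Cask.

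Other genes of nucleotide signalling were read from 8 lists, whose counts with FL-NfL stand beside 14% higher and 10.9% lower among all tested genes. The list called other P2 receptors goes by symbol and includes P2ry10 and P2ry10b, which are not in the lysophosphatidylserine list. Of its 10 genes, 4 were tested, P2ry10b among them, and 1 fell with FL-NfL, while 0 rose. It was P2ry1, the ADP receptor that works through Gq, with 2.14, 2.37, 3.01 and 2.42 CPM in FL-NfL replicates 1 to 4, 5.15, 2.53, 4.66 and 3.92 in CC-NfL and 4.08, 6.41, 6.43 and 8.51 in Vehicle. The FL-NfL and Vehicle libraries did not overlap, and the log2 change was −1.35 ± 0.25 (adjusted p = 0.00372 in edgeR). Under the replicate block the list had 2 genes higher and 1 lower, against 21.4% and 22.4% of all tested genes under the block. Of 4 adenosine receptors, 3 were tested and 1 rose, Adora2a, which couples to Gs. Its counts were 53, 58, 25 and 41 with FL-NfL, 39, 16, 8 and 13 with CC-NfL, and 30, 4, 8 and 4 with Vehicle. The ranges overlapped through Vehicle replicate 1, and the log2 change was 1.85 ± 0.63 (adjusted p = 0.0477 in edgeR). That call was lost without FL-NfL replicate 1, 2 or 4, CC-NfL replicate 2, 3 or 4, or Vehicle replicate 2, 3 or 4, at 1.58 to 1.86 and adjusted p-values of 0.0512 to 0.12 in edgeR. Without Vehicle replicate 1 the change was 2.98 (adjusted p = 0.00485 in edgeR). It was also lost with upper-quartile factors (adjusted p = 0.0536), with only the 2 groups in the fit (adjusted p = 0.0608) and without replicate 3 of every group (adjusted p = 0.0702).

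For the genes of nucleotide breakdown, adenosine handling and nucleotide release, the counts rest on 2 to 6 tested genes a list. Of 8 ectoenzymes other than Entpd1, 2 were tested and 1 fell with FL-NfL. It was Enpp1, which cuts ATP to AMP, at 26.7 CPM with FL-NfL and 46.3 with Vehicle (log2 change −0.79 ± 0.16, adjusted p = 0.00446 in edgeR). Of 6 tested genes of adenosine metabolism and transport, 3 rose and 0 fell, with a median change of 0.50. Adk, which turns adenosine into AMP, stood at 38.2 CPM with FL-NfL and 22.4 with Vehicle (0.77 ± 0.14, adjusted p = 0.0035 in edgeR). Ada, which turns adenosine into inosine, stood at 5.08 and 2.84 CPM in those groups (0.84 ± 0.19, adjusted p = 0.00912 in edgeR). Slc28a2, a nucleoside importer, averaged 7.53 CPM with FL-NfL and 1.29 with Vehicle (2.54 ± 0.60, adjusted p = 0.0103 in edgeR). Of 5 tested genes of nucleotide release, 1 fell, Panx1, a channel that lets ATP out, at 9.68 CPM with FL-NfL and 14.4 with Vehicle (−0.57 ± 0.15, adjusted p = 0.0175 in edgeR). Without FL-NfL replicate 2 or 4 or Vehicle replicate 1 or 2 its adjusted p was 0.05 to 0.0598 in edgeR and the call was lost.

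Around Gpr34, 5 of 6 genes of lysophosphatidylserine receptors and enzymes were tested, of which 1 rose and 1 fell with FL-NfL. Under the replicate block 1 rose and 2 fell, against 21.4% and 22.4% of all tested genes under the block. Pla1a, a phospholipase that makes lysophosphatidylserine, had 6, 15, 13 and 16 counts in FL-NfL libraries, 4, 19, 2 and 4 in CC-NfL libraries and 0, 1, 1 and 0 in Vehicle libraries (adjusted p = 0.00523 in edgeR). FL-NfL libraries lay above Vehicle in every case, on few reads. Pla1a passed the filter on low counts only through NfL libraries, where it is high, so its call is no independent support. In 1 of the 7 other settings Pla1a was not among the genes fitted, and no gene of this list was called higher there. Abhd6, a lipase that takes lysophospholipids among its substrates, stood at 6.79 CPM with FL-NfL and 13.7 with Vehicle (−1.01 ± 0.17, adjusted p = 0.00205 in edgeR). Of 11 G protein and effector genes, 3 rose and 2 fell, against 14% and 10.9% of all tested genes. Pik3r5, the adaptor by which G proteins reach PI3-kinase gamma, rose by 0.98 ± 0.15 (489.4 CPM with FL-NfL, 248.3 with Vehicle, adjusted p = 0.00146 in edgeR). Arrb2, an arrestin that binds active receptors, had 0.48 ± 0.11 (adjusted p = 0.00821), and Gna15 0.54 ± 0.13 (adjusted p = 0.0101), both in edgeR. Gnaq, the G protein subunit that P2ry1 and P2ry6 use, fell by 0.62 on the log2 scale (171.1 CPM with FL-NfL, 262.4 with Vehicle, adjusted p = 0.00137 in edgeR).

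Of 7 inflammasome genes linked to P2rx7, 3 rose and 2 fell with FL-NfL, against 14% and 10.9% of all tested genes, and under the replicate block 5 rose and 2 fell, against 21.4% and 22.4%. Il1b, the cytokine that P2rx7 opening helps to release, had 133.2, 197.0, 108.0 and 119.3 CPM in FL-NfL replicates 1 to 4. It had 83.4, 107.8, 73.8 and 86.5 CPM in CC-NfL and 102.0, 33.1, 40.9 and 28.1 in Vehicle. FL-NfL libraries lay above all Vehicle libraries, and Vehicle replicate 1 was high for its group. The log2 change was 1.45 ± 0.36 (adjusted p = 0.0127 in edgeR). Gsdmd, whose product forms the pore of pyroptosis, had 0.56 ± 0.14 (adjusted p = 0.0121), and Casp1, the protease that cleaves both, 0.55 ± 0.15 (adjusted p = 0.0199), both in edgeR. The Casp1 call was lost without FL-NfL replicate 2 or 4 or Vehicle replicate 1, at adjusted p-values of 0.0515 to 0.0574 in edgeR. Nek7, a kinase that binds NLRP3, fell by 0.24 (adjusted p = 0.0252 in edgeR), and that call was lost without FL-NfL replicate 1 or 2 or Vehicle replicate 2 or 4, at 0.0545 to 0.0673, and with no filter on low counts, at 0.0804.

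The median log2 changes of the lists with FL-NfL, beside −0.02 over all tested genes, were 0.48 for the other P2 receptors, 0.12 for adenosine receptors, −0.27 for ectoenzymes, 0.50 for adenosine metabolism and transport, −0.09 for nucleotide release, 0.03 for lysophosphatidylserine genes, 0.08 for G proteins and effectors and 0.38 for inflammasome genes. Several rest on 2 to 5 tested genes.

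With CC-NfL no gene of these lists was called by edgeR. The genes with the smallest p in their list had log2 differences from Vehicle of −0.65 for P2ry1, 0.58 for Adora2a, −0.51 for Enpp1, 0.46 for Ada, −0.24 for Panx1, 0.42 for Pik3r5 and 0.35 for Gsdmd, at adjusted p-values of 0.646 to 0.867 in edgeR. Pla1a, with the counts given above, had an adjusted p of 0.621 in edgeR. Between the forms, 1 listed gene was called, Gnaq, which was lower with FL-NfL than with CC-NfL by a log2 difference of −0.43 (adjusted p = 0.0388 in edgeR). Its list had 11 tested genes, and the other lists, of 2 to 7 tested genes each, had 0 calls. Of all tested genes, 2.72% were called between the forms, 1.34% of them lower and 1.38% higher.

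**Figure D5:**
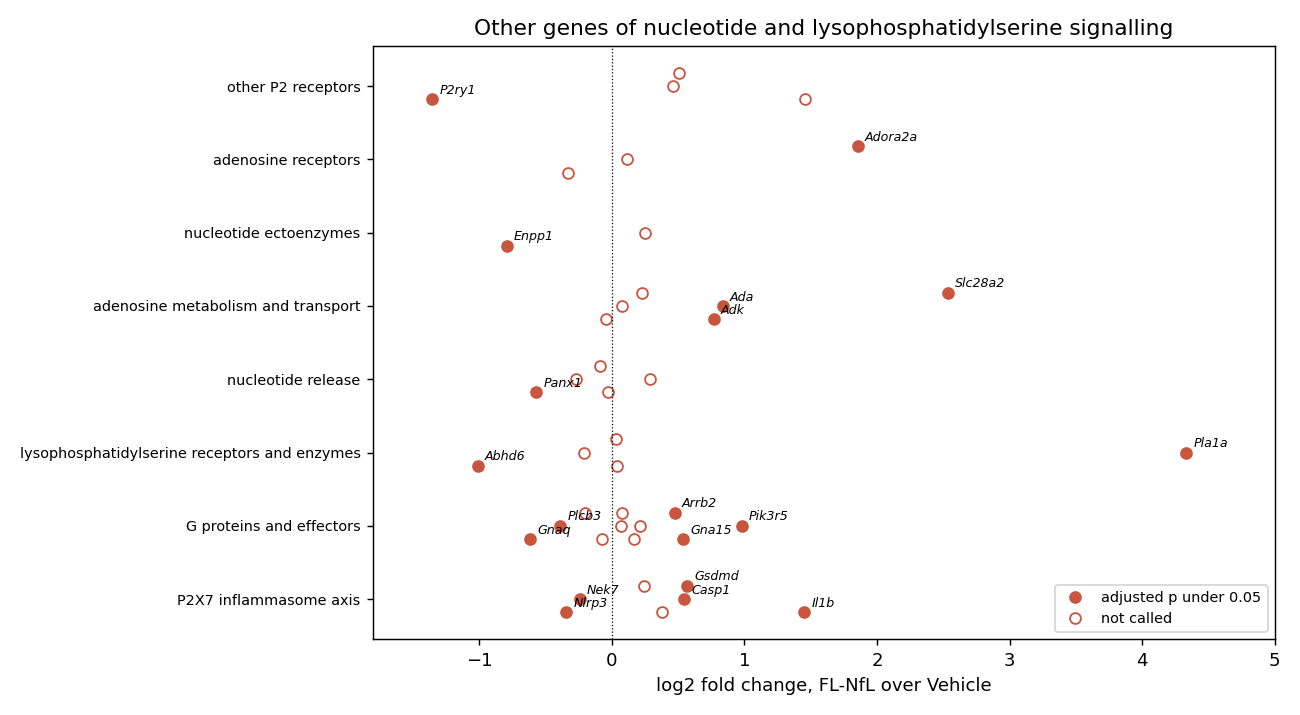
Log2 fold change with FL-NfL over Vehicle (x axis) of the tested genes of 8 lists (rows), filled where the adjusted p was under 0.05. Slc28a2 at 2.54 and Il1b at 1.45 lie to the right and P2ry1 at −1.35 and Abhd6 at −1.01 to the left, and the rightmost point, Pla1a, rests on 0 or 1 count in each Vehicle library, so its fitted value is no measure of size.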

How the data were processed

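The authors deposited a table of read counts per Ensembl gene for 12 libraries, which was taken to hold raw counts. Per the labels, the libraries were of polyadenylated RNA, made with a stranded kit and sequenced as single reads of 50 bases. The submitters' processing notes name GSNAP and GRCm38. How the aligner was versioned, which tool and annotation did the counting, and whether strand was used was not given in the sources used here, so reads of genes that overlap on opposite strands may not be separated. Symbols, exon lengths and coordinates came from GENCODE M21 (GRCm38), in which 52403 of the 52636 identifiers had a symbol. Of the listed genes, Pnp was not matched and has no value.

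From the deposited counts, edgeR 4.0.16 (R 4.3.3) kept 14687 genes by filterByExpr, with 99.9% of the counts, and scaled libraries with TMM factors. The 12 libraries were fitted in 1 quasi-likelihood model of 3 groups with 9 residual degrees of freedom. P-values of the two-sided F test were adjusted by Benjamini-Hochberg over all tested genes (threshold 0.05) in each of 3 comparisons. SE is the log2 change divided by the square root of F, and 95% intervals use the t quantile of the moderated degrees of freedom. Likeness was Pearson's r on log2 CPM (prior count 2). The script was tested on simulated data.

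Batch labels make equal replicate numbers a pair. After removal of group means, same-numbered libraries had correlations of 0.31 to 0.73 over genes (12 of 12 pairs over 0.1), and those with different numbers at −0.46 to 0.44 (8 of 36 over 0.1). The labels do not say whether batches are separate cultures, so the spread that p-values measure is that between these samples and may be technical. Alternatives were upper-quartile and DESeq2 size factors (RLE), DESeq2 1.42.0, no filter, the replicate block, only the groups compared, each library left out and, added after seeing the data, replicate 3 of every group left out.

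The 8 genes, the gene lists and the tests were chosen with earlier results of these data known. Of each list the text names up to 4 called genes with the smallest p in the direction with more calls and 1 in the other, or, in a list without calls, the gene with the smallest p. The host and neighbour genes and the 5 genes most like Gpr34 and P2ry12 are named as well. Some genes of the lists are not reported here by name.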

Additional observations from a re-analysis of the deposited data

Results flagged for a closer look

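Replicate 3 was far above the rest of its group for several receptors, by Dixon's test at the 95% level for groups of 4 samples, which chance alone passes in about 1 of 20 groups. P2ry12 was at 56.7 CPM in FL-NfL replicate 3, 59.7 in CC-NfL replicate 3 and 64.2 in Vehicle replicate 3. P2ry6 was at 227.7 CPM in FL-NfL replicate 3 and 241.2 in Vehicle replicate 3. FL-NfL replicate 3 was also set apart for P2ry14 (20.1 CPM), CC-NfL replicate 3 for P2rx7 (196.5 CPM) and Vehicle replicate 3 for P2ry13 (55.0 CPM). The libraries of 1 replicate number share a batch label, so these values are not independent of each other.

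The effect of FL-NfL minus that of CC-NfL was −2.28 on the log2 scale for Gpr34 and −1.19 for Entpd1, tested by the comparison of the 2 forms. Both passed the threshold there, and both calls were lost in several settings.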

How the results depend on the processing

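The calls of Gpr34, Entpd1 and P2rx4 with FL-NfL against Vehicle kept their direction and their side of the threshold in all 19 other settings, with log2 changes of −3.74 to −3.01, −2.12 to −1.83 and 0.55 to 0.75. With the replicate block, FL-NfL against Vehicle gave 3148 genes higher and 3284 lower over all genes and 2 higher and 4 lower among the 8, and the block changed no other call of the 8 genes. CC-NfL against Vehicle gave 24 higher and 9 lower with DESeq2 and 1 and 1 with the block. FL-NfL against CC-NfL gave 797 and 628 with DESeq2, 1321 and 1485 with the block, 85 and 83 with only these groups and 61 and 57 without replicate 3 of every group, and in these last 2 settings 0 of the 8 genes were lower. When 1 library was left out, between 1392 and 2349 genes were higher and between 992 and 1735 lower with FL-NfL against Vehicle, 0 to 18 and 0 to 8 with CC-NfL, and 14 to 324 and 18 to 277 between the forms, with 0 to 2 of the 8 genes lower.

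Differences near 0 that were not called changed sign. Over the single libraries left out, P2ry12 ran from −0.42 to 0.13 with FL-NfL against Vehicle, from −0.33 to 0.21 with CC-NfL against Vehicle and from −0.35 to 0.18 between the forms. Cask ran from −0.12 to 0.011 with FL-NfL against Vehicle. With CC-NfL against Vehicle P2ry13 ran from −0.25 to 0.14, P2ry14 from −0.10 to 0.70 and P2rx7 from −0.14 to 0.13, and P2rx7 also turned with upper-quartile factors (−0.0080) and without replicate 3 of every group (−0.028). Between the forms P2ry14 ran from −0.019 to 0.56 and P2ry6 from −0.060 to 0.12, and P2ry6 also turned with upper-quartile factors (−0.020). A fit without 1 library keeps the other libraries of its batch, so that batch is no longer balanced over the groups. The cause of the sign changes was not tested. With 4 libraries a group, the 95% intervals given here come from the model without a term for batch. For the 5 receptors without a call there with FL-NfL against Vehicle, they reach as low as −0.78 (P2ry12) and as high as 1.35 (P2ry14). Under the replicate block the SE was smaller, at 0.061 in place of 0.29 for P2ry12 and 0.18 in place of 0.41 for P2ry14. P2ry13, P2ry14 and P2rx7 were called under the block.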
